A study of Homo sapiens with 6 samples.

Results

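The entries described here are miRNAs that the authors predicted from the small RNA reads themselves and to which they attached no miRNA of a catalogue. They are named by chromosome, a number and an arm, as in 14_18301-5p, while other predicted entries also carry the name of a miRNA of another species in parentheses. The tables used here hold 24 such rows among 115 predicted rows, 11 listed as higher and 13 as lower after H2O2. Rows with identical read counts in all 6 libraries were counted once, which left 23 entries among 250 distinct rows. These 250 are rows that the authors listed as different, not all miRNAs of the series. Of the 23 entries, 4 repeat the counts of a known human miRNA, and 2 others differ from a known human miRNA by 1 and 3 reads over all libraries. That left 17 entries, whose nearest known row differed by 13.3% to 74.3% of their reads, summed over the libraries.

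A miRNA is cut from a hairpin-shaped transcript, and either arm of the hairpin, called 5p and 3p, can be loaded into an Argonaute protein. Base pairing between a target mRNA and the seed, a short stretch near the 5′ end of the miRNA, sets most of its targeting. Prediction programs look for reads that stack on the arms of a genomic sequence able to fold into such a hairpin. Fragments of other abundant RNAs can give similar stacks, so a predicted entry is a candidate.

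Small RNA was sequenced from exosomes, small vesicles that cells release, which were pelleted by ultracentrifugation from the medium of HaCaT cells, an established line of human skin keratinocytes. The H2O2 group is 3 libraries of exosomes from cells given 0.4 mM H2O2, an oxidant, with a labelled time of 24 h for replicate 1, 25 h for replicate 2 and 26 h for replicate 3. The series' own description has 24 h for all of them. The untreated group is 3 libraries of exosomes from cells without H2O2, and the labels call the replicates of both groups biological. No sample of the cells themselves was analysed here, and more vesicles with a miRNA cannot be told apart from more copies per vesicle. Levels are read counts per 1000000 reads (CPM) of library totals of 2449856 to 4131478 reads in H2O2 libraries and 2644362 to 5405525 reads in untreated libraries, so that a single read was worth 0.185 to 0.408 CPM. Their number of reads limits each value, and intervals given below cover counting error only.

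Every row of the tables was selected by the authors as different between these same libraries. The highest p in the authors' deposited table was 0.049, and the smallest log2 fold change there was 1.03 in size. The counts of calls below describe entries already selected in this way, and adjusted p-values over selected rows are too small by an unknown amount. None of the 7 keratinocyte miRNAs checked was listed (0), so the labelled cell type could not be checked on these rows. Of 5 blood cell miRNAs 3 were listed, with summed levels of 8.23 to 14.3 CPM in H2O2 libraries and 33.2 to 56.7 CPM in untreated libraries, and the liver miRNA miR-122-5p was at 4.55 to 9.80 CPM in H2O2 libraries and 19.6 to 117.6 CPM in untreated libraries. The 2 neural miRNAs checked summed to 3887 to 5511 CPM in H2O2 libraries and 1745 to 2252 CPM in untreated libraries. Nearly all of this sum was miR-9-5p, with a mean of 3237 CPM over all libraries. Of 3 muscle miRNAs 2 were listed, at 1.95 to 211 CPM in H2O2 libraries, the highest in replicate 2, and 2.59 to 12.9 CPM in untreated libraries. The known miR-1246 row alone took 0.261% to 27.4% of the reads of H2O2 libraries, the highest in replicate 3, and 0.130% to 1.15% in untreated libraries. The part of these differences in the values below was not tested.

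The 4 entries that repeat a known miRNA are 13_16953-5p, with the counts of miR-2276-5p, 10_13201-3p, with those of miR-4676-3p, 16_19860-3p, with those of miR-7854-3p, and 8_11940-5p, with those of miR-4664-5p. Near repeats are 17_21786-3p, which differs from miR-6510-3p by 1 read, and 17_21050-5p, which differs from miR-6866-5p by 3 reads. In both cases the known miRNA is from the same arm. The limit for a near repeat, a difference of at most 10% of the entry's reads, was set after the counts were seen. Of these known miRNAs 4 are printed here from RefSeq because they are the sequences to which those counts, or nearly those counts, were also given. The sequences of the predicted entries themselves are not analysed here. Capitals mark the seed, bases 2 to 8:
miR-2276-5p: gCCCUCUGucaccuugcagacg
miR-4676-3p: cACUGUUUcaccacuggcucuu
miR-7854-3p: uGAGGUGAccgcagaugggaa
miR-6510-3p: cACCGACUcugucuccugcag

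In 3 of the 4 cases of identical counts the chromosome and arm in the predicted name were the same as those of the known miRNA. For 8_11940-5p the arm was the same as that of miR-4664-5p. The chromosomes of miR-4664-5p and of miR-6866-5p could not be checked, since neither was in the RefSeq set used. No other mature human miRNA of the table used had the seed of miR-2276-5p or of miR-7854-3p. The seed of miR-4676-3p was shared with miR-452-5p and miR-892c-3p, neither of which was listed. The hairpins of these 3 are printed with the counted arm in capitals, to show where in the fold that strand lies:
MIR2276: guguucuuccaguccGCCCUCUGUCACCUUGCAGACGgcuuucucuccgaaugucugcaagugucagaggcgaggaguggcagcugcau
MIR4676: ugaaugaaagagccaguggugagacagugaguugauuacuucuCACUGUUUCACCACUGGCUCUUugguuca
MIR7854: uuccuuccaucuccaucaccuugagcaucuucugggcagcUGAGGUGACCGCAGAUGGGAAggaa

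On GRCh38.p14 the MIR2276 hairpin lies at chr13:24162416-24162504, plus strand, inside the protein-coding genes SPATA13 and AL359736.1. MIR4676 lies at chr10:72721029-72721100, plus strand, inside MCU, which encodes the pore of the mitochondrial calcium uniporter. MIR7854 lies at chr16:81533902-81533966, plus strand, inside CMIP, which encodes the c-Maf-inducing protein. In GENCODE release 29 each host gene is on the same strand, and the hairpin overlaps no exon of it, so all 3 are intronic. The mature miR-6510-3p lies at chr17:41517166-41517186, minus strand, on the chromosome in the name of 17_21786-3p. The build of the files was not given in the sources used here, and the predicted names carry no position to compare.

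After H2O2, 5 of the 23 entries rose (14_18301-5p, 3_5151-5p, 9_12040-5p, 22_25354-3p and 14_17992-5p) and 4 fell (10_13201-3p, 16_19860-3p, 17_21786-3p and 17_21050-5p). All 4 that fell carry the counts of a known miRNA, 2 of them exactly and 2 nearly, and none of the 5 that rose does (0). The 2 most abundant, 14_18301-5p and 3_5151-5p, were 34.5 and 27.7 times as frequent in the pooled reads of H2O2 exosomes as in those of untreated exosomes. These calls come from edgeR's quasi-likelihood test over the 170 distinct rows that reached 5 counts in 3 or more libraries, adjusted by Benjamini and Hochberg, with adjusted p under 0.05 taken as a call. Over all 170 rows 37.1% rose and 42.4% fell, and 79.4% were called in either direction, so the 9 calls among the 12 entries that could be tested (75%) stand near the background of selected rows. Of the 12, 2 reached the count filter in 1 group only (9_12040-5p in H2O2 libraries and 10_13201-3p in untreated libraries), so that they had to differ to be tested, and 4 rises and 3 falls are left without them. As a description, the median log2 fold change of the 12 was 1.5, beside 1.01 over all 170 rows. It was 1.56 over the 34 tested predicted rows named after another species and -1.22 over the 124 tested known miRNAs. Small fold changes are missing from these selected rows, so each median depends on how many were listed as higher or lower. Listed as higher were 8 of the 12 and 92 of the 170. The other 11 entries had too few counts for the test, among them 3 of those listed higher and 8 of those listed lower. On library totals without miR-1246 reads 6 rose and 3 fell, and 74 rose and 46 fell over all rows, beside 63 and 72 with the full totals.

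**Figure D1:**
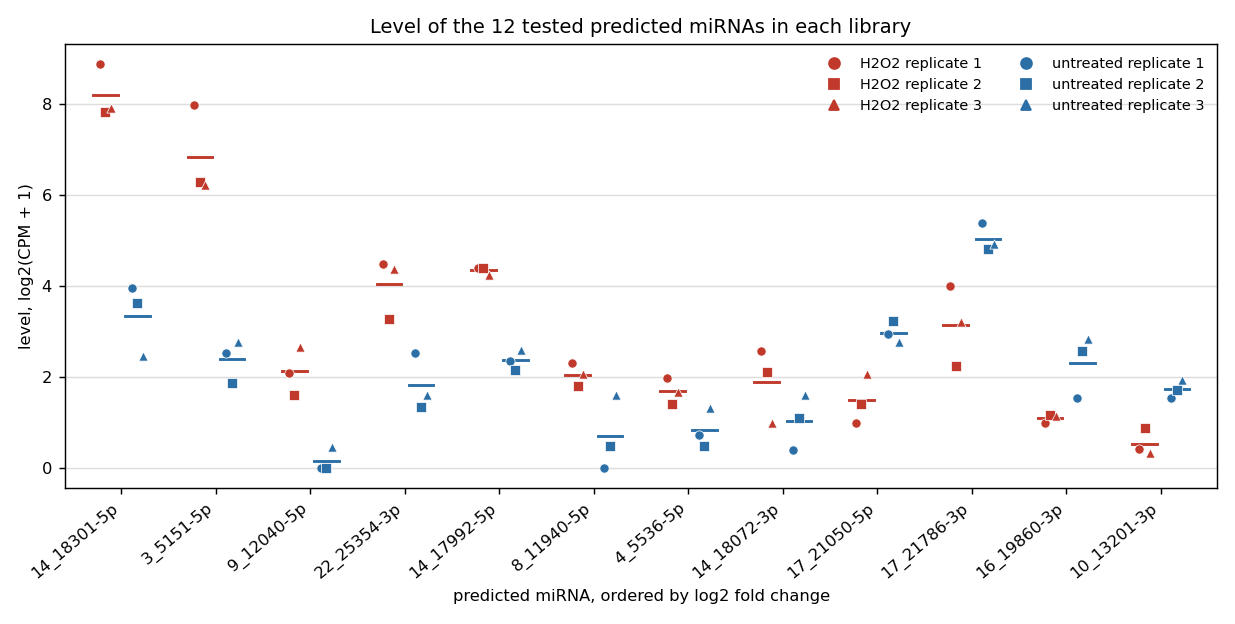
Level of the 12 tested entries in each library, as log2(CPM + 1); each point is a library, bars are means over 3 libraries, and H2O2 libraries stand left of untreated ones. All 3 H2O2 libraries lie above all 3 untreated ones for 14_18301-5p and 3_5151-5p, and 14_18072-3p is the entry among the 12 whose groups overlap.

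14_18301-5p was the most abundant of the 23 entries. It was at 468, 225 and 237 CPM in H2O2 replicates 1, 2 and 3, against 14.5, 11.3 and 4.44 CPM in untreated replicates 1, 2 and 3. The groups lay far apart, and H2O2 replicate 1 stood above the other H2O2 libraries. The means were 310.0 ± 137 CPM and 10.1 ± 5.16 CPM (SD, n = 3 each), and the log2 fold change was 4.95 ± 0.60 (SE; edgeR adjusted p = 0.00254). By its mean level over the 6 libraries it was number 33 of the 250 distinct rows, and by its mean in H2O2 libraries number 26. Its p was the smallest of the 170 rows tested.

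3_5151-5p was the next most abundant. It was at 251, 77.1 and 72.9 CPM in H2O2 replicates 1, 2 and 3, against 4.74, 2.65 and 5.73 CPM in untreated replicates. The groups did not overlap, and H2O2 replicate 1 held 62.6% of the summed CPM of the H2O2 libraries. The log2 fold change was 4.90 ± 0.67 (SE; edgeR adjusted p = 0.00254), and 4.07 ± 0.56 without H2O2 replicate 1. 14_18301-5p and 3_5151-5p passed in each of the 6 runs with a library left out, and they were the entries that stayed below 0.05 when p was adjusted for 2000 assumed tests, each with adjusted p = 0.0299. The highest log2 fold change of all 170 rows was 4.97, in a predicted row named after a miRNA of another species.

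14_17992-5p, named by the same chromosome as 14_18301-5p, rose with little spread. It had 61, 49 and 74 reads in H2O2 replicates 1, 2 and 3, against 13, 9 and 27 reads in untreated replicates. Its level was 19.2 ± 1.16 CPM in H2O2 libraries and 4.17 ± 0.797 CPM in untreated libraries (SD, n = 3 each). In CPM the 3 H2O2 libraries lay within 1.12 times of each other, and H2O2 replicate 1 did not stand apart here. The log2 fold change was 2.18 ± 0.45 (SE; edgeR adjusted p = 0.0115), and it passed in each of the 6 runs with a library left out.

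22_25354-3p was at 21.1, 8.57 and 19.6 CPM in H2O2 replicates 1, 2 and 3, against 4.74, 1.51 and 2.03 CPM in untreated replicates. H2O2 replicate 2 and untreated replicate 2 were the lowest of their groups, and the groups did not overlap. The log2 fold change was 2.57 ± 0.62 (SE; edgeR adjusted p = 0.0138), with adjusted p = 0.053 without H2O2 replicate 1 and a log2 fold change of 3.17 without untreated replicate 1.

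9_12040-5p was near absent without H2O2. It had 10, 5 and 22 reads in H2O2 replicates 1, 2 and 3, against 0, 0 and 2 reads in untreated replicates. In CPM it was at 3.25, 2.04 and 5.32 in H2O2 libraries, with 0.37 CPM in untreated replicate 3 and 0 in the other untreated libraries. Over the pooled reads of each group the ratio was 21.5, with an exact 95% counting interval of 5.54 to 184. The fitted log2 fold change was 4.15 ± 0.89 (SE; edgeR adjusted p = 0.012), and 6.51 without untreated replicate 3, the only untreated library with reads. The H2O2 libraries alone brought it past the count filter, so its call is no support for a difference. With any H2O2 library left out it had too few counts to be tested.

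The other 3 tested entries listed as higher were not called. 8_11940-5p, the row shared with miR-4664-5p, was at 3.90, 2.45 and 3.15 CPM in H2O2 replicates 1, 2 and 3, against 0, 0.378 and 2.03 CPM in untreated replicates. Its groups did not overlap, and the log2 fold change was 1.72 ± 0.84 (SE; edgeR adjusted p = 0.0802). Without untreated replicate 3 it was 3.91 (adjusted p = 0.0153), and the entry also passed on totals without miR-1246 reads (adjusted p = 0.0488) and with limma at pseudocounts of 1 (adjusted p = 0.0317) and 0.1 (adjusted p = 0.0423). 4_5536-5p was at 1.63 to 2.92 CPM in H2O2 libraries and 0.378 to 1.48 CPM in untreated libraries, where the log2 fold change came to 1.28 ± 0.63 (SE; edgeR adjusted p = 0.0819). 14_18072-3p was at 0.968 to 4.87 CPM in H2O2 libraries and 0.316 to 2.03 CPM in untreated libraries, and its groups overlapped. Its log2 fold change was 1.24 ± 0.78 (edgeR adjusted p = 0.147).

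17_21786-3p, which has the counts of miR-6510-3p but for 1 read in untreated replicate 1, was the most abundant entry that fell. It was at 14.9, 3.67 and 8.23 CPM in H2O2 replicates 1, 2 and 3, against 40.5, 26.8 and 29 CPM in untreated replicates. The H2O2 libraries differed by up to 4.07 times among themselves, while the untreated libraries stayed within 1.51 times, and all H2O2 values lay below all untreated ones. The log2 fold change was -1.83 ± 0.56 (SE; edgeR adjusted p = 0.0251). The call was lost without H2O2 replicate 3 (adjusted p = 0.0579) or untreated replicate 1 (adjusted p = 0.0676).

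17_21050-5p has the counts of miR-6866-5p in each H2O2 library and 1 read fewer in each untreated library. It was at 0.974, 1.63 and 3.15 CPM in H2O2 replicates 1, 2 and 3, against 6.64, 8.32 and 5.73 CPM in untreated replicates. H2O2 replicate 3 was the highest of its group and still below the lowest untreated library. The log2 fold change was -1.78 ± 0.56 (SE; edgeR adjusted p = 0.0263), and -2.38 without H2O2 replicate 3. The call was lost when H2O2 replicate 1 or 2 or untreated replicate 1 or 2 was left out, and also on totals without miR-1246 reads (adjusted p = 0.0535).

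The other 2 entries that fell have exactly the counts of a known miRNA. 16_19860-3p, with the counts of miR-7854-3p, was at 0.974, 1.22 and 1.21 CPM in H2O2 replicates 1, 2 and 3, against 1.90, 4.92 and 6.10 CPM in untreated replicates. The H2O2 values lay close together and all below the untreated ones, and the fitted log2 change was -1.91 ± 0.62 (SE; edgeR adjusted p = 0.0274). The call was lost when H2O2 replicate 1 or 3 or untreated replicate 2 or 3 was left out.

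10_13201-3p, with the counts of miR-4676-3p, had 1, 2 and 1 reads in H2O2 replicates 1, 2 and 3, against 6, 6 and 15 reads in untreated replicates. In CPM it was at 0.325, 0.816 and 0.242 in H2O2 libraries, against 1.90, 2.27 and 2.77 in untreated libraries, which do not overlap. The log2 fold change was -2.37 ± 0.66 (SE; edgeR adjusted p = 0.0203). The untreated libraries alone brought it past the count filter, so its call is no support for a difference. It was lost without H2O2 replicate 1 or H2O2 replicate 3, and it had too few counts to be tested with any untreated library left out. Among entries with neither the same nor nearly the same counts as a known miRNA, 5 rose and 0 fell by edgeR, and none listed as lower had enough counts for the test.

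**Figure D2:**
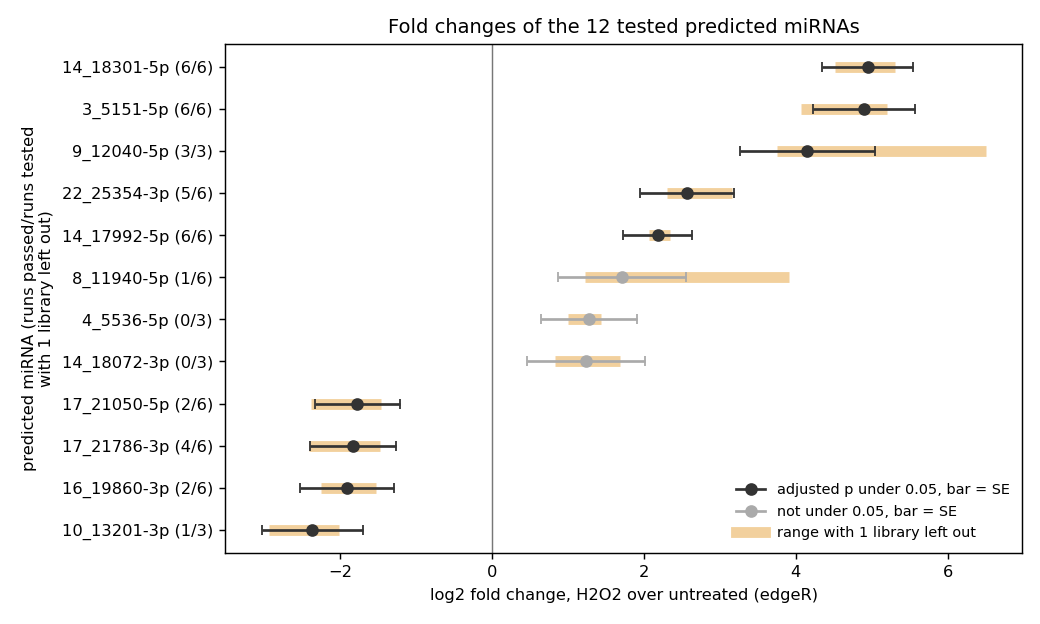
Log2 fold change (H2O2 over untreated) of the 12 tested entries with its SE; the orange band is the range with 1 library left out, and the numbers beside each name give the runs passed of those in which the entry had enough counts. 14_18301-5p, 3_5151-5p and 14_17992-5p passed in 6 of 6 runs, and the band of 9_12040-5p reaches 6.51.

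Of the 11 entries below the count filter, 3 were listed as higher. 13_16953-5p, with the counts of miR-2276-5p, had 2, 4 and 6 reads in H2O2 replicates 1, 2 and 3, against 0, 0 and 1 reads in untreated replicates. The pooled ratio was 13.9 with an exact 95% counting interval of 2.06 to 595. It is the only entry whose other arm was also listed. The row of 13_16953-3p, which carries the name of cte-miR-2705, had 4, 4 and 20 reads in H2O2 replicates and 0, 1 and 11 reads in untreated replicates, so that its CPM values overlapped between the groups.

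3_4794-3p had 2, 5 and 6 reads in H2O2 replicates 1, 2 and 3, against 0, 0 and 2 reads in untreated replicates, a pooled ratio of 7.54 (exact 95% counting interval 1.71 to 68.9). 17_20803-3p had 4, 2 and 3 reads in H2O2 replicates, against 0, 0 and 1 reads in untreated replicates, a pooled ratio of 10.4 (exact 95% counting interval 1.45 to 458). Like 9_12040-5p and 13_16953-5p, both had their untreated reads in replicate 3 alone, the library with the most reads.

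Of the 8 entries listed as lower that were below the filter, 4 had 0 reads in every H2O2 library. 4_5905-5p had 3, 22 and 2 reads in untreated replicates 1, 2 and 3. The limit that a count of 0 allows was taken as 3 counts over the 9660428 reads of the H2O2 group, or 0.311 CPM. The pooled untreated level of 4_5905-5p was 7.75 times that limit. Such a ratio leaves out the counting error of the untreated reads, so it is no lower bound on the fold. Untreated replicate 2 held 86.3% of the untreated CPM of 4_5905-5p, and without that library the ratio was 1.88. 19_23355-5p had 8, 5 and 3 reads in untreated replicates. Its pooled untreated level was 4.59 times the limit, and 3.20 times without untreated replicate 1. 2_2410-5p had 4, 3 and 2 reads in untreated replicates, and 19_23390-3p had 1, 1 and 7. For both, the pooled untreated level was 2.58 times the limit, again with no lower bound on the fold. For 19_23390-3p, untreated replicate 3 held 65.1% of the untreated CPM, and without that library the ratio was 1.11, on 2 reads.

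The other 4 had 1 to 3 reads over the H2O2 group. The row of 15_18434-5p and 15_18440-5p, which hold identical counts, had 0, 1 and 2 reads in H2O2 replicates 1, 2 and 3, against 8, 16 and 4 reads in untreated replicates. The pooled ratio of H2O2 over untreated was 0.124 (exact 95% counting interval 0.0242 to 0.403). 6_7897-3p had 0, 0 and 1 reads in H2O2 replicates, against 2, 9 and 8 reads in untreated replicates, a ratio of 0.0611 (exact 95% counting interval 0.00147 to 0.384). 16_20024-3p had 0, 0 and 1 reads in H2O2 replicates, against 5, 3 and 6 reads in untreated replicates, a ratio of 0.0829 (exact 95% counting interval 0.00196 to 0.545). For 15_18434-5p, 6_7897-3p and 16_20024-3p the groups did not overlap.

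Y_26519-5p had 1, 2 and 0 reads in H2O2 replicates 1, 2 and 3, against 2, 23 and 7 reads in untreated replicates. Its CPM values overlapped, since H2O2 replicate 2 at 0.816 CPM lay above untreated replicate 1 at 0.632 CPM. Untreated replicate 2 held 81.9% of its untreated CPM, as it also held most of that of 4_5905-5p.

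**Figure D3:**
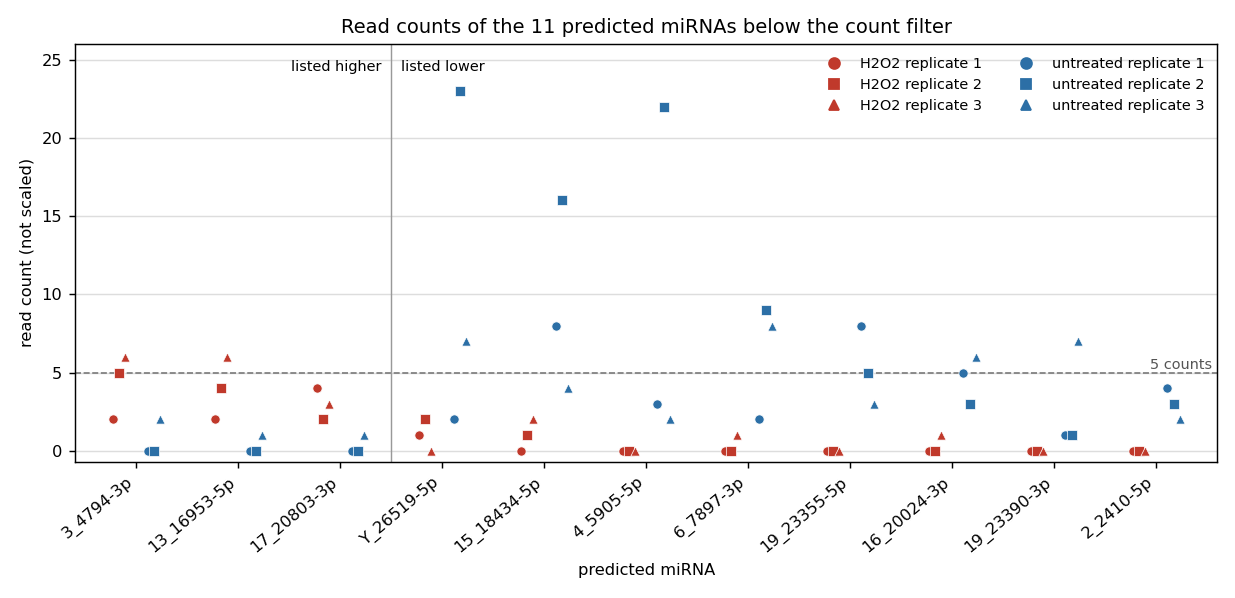
Read counts, not scaled for library size, of the 11 entries below the filter of 5 counts in at least 3 libraries; each point is a library, H2O2 left of untreated. Untreated replicate 2 stands alone at 23 reads for Y_26519-5p and at 22 reads for 4_5905-5p.

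The 2 groups did not overlap in 21 of the 23 entries, against 80.8% of all 250 distinct rows, which were selected for a difference. H2O2 replicate 1 had the highest H2O2 level in 7 of the 11 entries listed as higher. Untreated replicate 3 had the highest untreated level in 9 of those 11. Among the 12 entries listed as lower, untreated replicate 2 was the highest untreated library in 5, replicate 1 in 4 and replicate 3 in 3.

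Summed over the 23 entries, the level was 795, 353 and 377 CPM in H2O2 replicates 1, 2 and 3, against 90.4, 94.2 and 74.7 CPM in untreated replicates. 14_18301-5p and 3_5151-5p made up 87.3% of the mean H2O2 sum and 16.8% of the mean untreated sum. Without them the 9 other entries listed as higher summed to 58.5, 42.5 and 52.8 CPM in H2O2 replicates, against 9.80, 6.81 and 13.7 CPM in untreated replicates. The 12 entries listed as lower summed to 17.5, 8.57 and 13.8 CPM in H2O2 replicates, against 61.3, 73.4 and 50.9 CPM in untreated replicates.

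The names of the 23 entries cover 15 chromosomes, with 13 entries on the 5p arm and 10 on the 3p arm. Of those listed as higher 7 were 5p and 4 were 3p, and of those listed as lower 6 were 5p and 6 were 3p. The numbers in the names run on from chromosome to chromosome over all predicted rows, in the order 1 to 22, X and Y, with no chromosome out of order (0).

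Set beside the known miRNAs listed, the entries had low levels. The median of the mean level over 6 libraries was 1.70 CPM for the 23 entries, 1.70 CPM for the 71 predicted entries named after another species whose counts repeat no known miRNA, and 9.62 CPM for the 156 known miRNAs that no entry repeats exactly. By listed direction the medians of entries and of predicted miRNAs named after another species lay apart in opposite ways. Among those listed as higher they were 1.98 CPM for entries, 6.93 CPM for predicted miRNAs named after another species and 10.1 CPM for known miRNAs. Among those listed as lower they were 1.5 CPM for entries, 0.962 CPM for predicted miRNAs named after another species and 8.76 CPM for known miRNAs. The filter left 12 of 23 entries (52.2%), 34 of 71 (47.9%) and 124 of 156 (79.5%) to be tested. Of those tested, 75% of the entries, 82.4% of the predicted miRNAs named after another species and 79.0% of the known miRNAs were called. These differences between classes were not tested. Of 75 distinct predicted rows named after another species, 4 also repeat the counts of a known miRNA, as do 4 of the 23 entries. Near repeats were searched for among the 23 entries alone, so they are not shown to be particular to them. The predicted row 10_13692-3p(sme-miR-753d-5p) had a mean of 44.9 CPM and a log2 fold change of -1.67, as did miR-3158-3p. Both stand among the 170 rows tested.

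**Figure D4:**
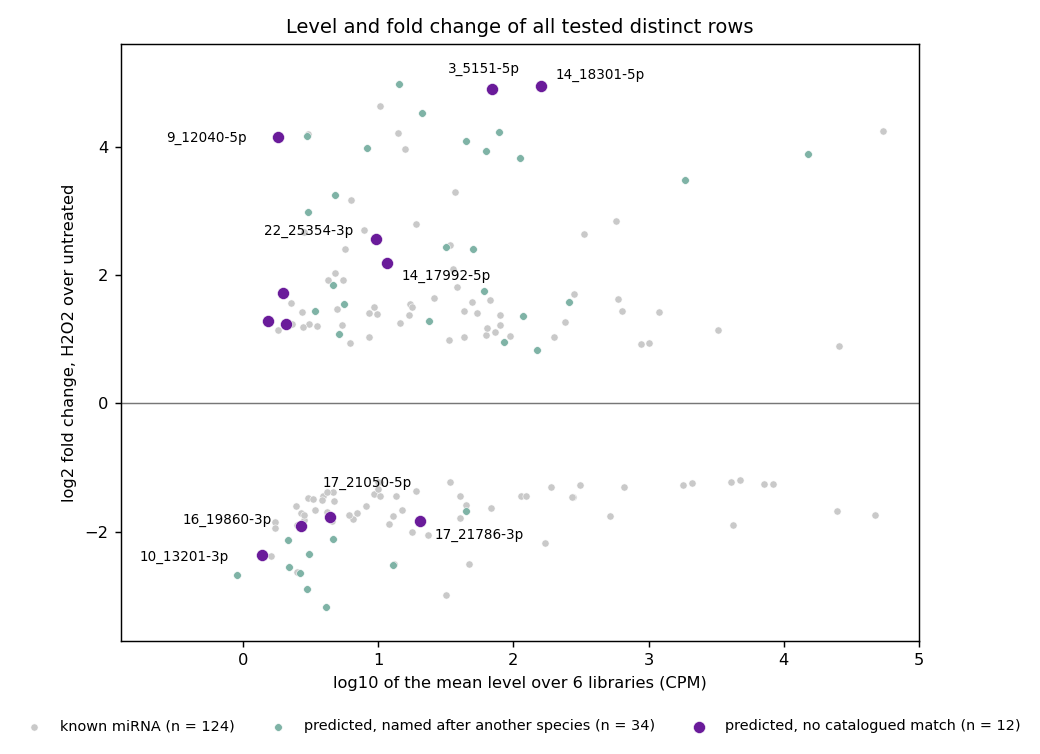
Log2 fold change (H2O2 over untreated) against log10 of the mean CPM over 6 libraries for the 170 distinct rows tested, with the 12 entries in purple and those called named. 14_18301-5p and 3_5151-5p stand at 4.95 and 4.90 near the top, and the 4 entries that fell lie between -2.37 and -1.78.

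In the authors' deposited table the log2 fold changes were 5.27 for 14_18301-5p and 5.2 for 3_5151-5p. For the 12 tested entries the values of the authors' deposited table lay above those from edgeR by 0.28 to 0.33, with a median of 0.31. Over all 170 rows tested that difference was 0.061 to 0.387, with a median of 0.18. Every entry had the same direction in both.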

How the data were processed

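Per the file headers, the authors deposited 4 tables with raw read counts per library and a normalized value, which equals reads per 1000000 (CPM) of a library total. That total was recovered as count divided by CPM. The authors also deposited a log2 fold change, its fold (a ratio) and an unadjusted p-value, by software not given in the sources used here. Per the submitters' processing notes Bowtie 1.1.1, cutadapt, FastQC and bcl2fastq were used. Nor was a build, a miRNA catalogue or a prediction program named.

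Rows with identical counts in all 6 libraries were merged. Rows that reached 5 counts in 3 or more libraries were fitted together with edgeR 4.0.16 (estimateDisp, glmQLFit and glmQLFTest, two-sided; R 4.3.3) on the recovered totals with no composition factor, and p-values were adjusted over all of them by Benjamini and Hochberg. Standard errors are the log2 fold change divided by the root of F. The steps were tested on simulated data. The simulated rows were not selected for a difference, so this is no check of adjusted p-values over selected rows. Ratios of pooled counts have exact binomial 95% intervals. The alternatives were other scalings, filters and tests (DESeq2 1.42.0, limma 3.58.1), a replicate block and each library left out.

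The entries to be named were the largest calls, the 5 most abundant and those that repeat another row. Near repeats were found as the known row with the smallest summed count difference. The remaining ones are named because the set is small, chosen after their values were seen. The entries, lists and tests were chosen with earlier results of these data known. Sequences are from RefSeq (GRCh38.p14).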

Additional observations from a re-analysis of the deposited data

How the results depend on the processing

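The 12 tested entries kept their direction in all 210 values under 19 alternatives. This is no support, since the entries were selected for a difference in these same counts. Of the 210 values 182 kept their side of the threshold, while 23 lost it and 5 gained it. Beside 5 rises and 4 falls, adjustment as if 2000 miRNAs had been tested left 2 rises and 0 falls by edgeR, where 4 falls had an unadjusted p under 0.05. With no filter 12 fell, 8 of them entries too low for the filter. With at least 20 counts 2 fell, with limma on log2(CPM + 5) 2 fell, and counting entries that repeat no known row, chosen after seeing the data, 2 fell. Leaving out near repeats as well, also chosen after seeing the data, 5 rose and 0 fell by edgeR, since no tested entry listed as lower is left. Counting entries that reached the filter in both groups, likewise added later, 4 rose and 3 fell. With 1 library left out 3 to 6 rose, the fewest without H2O2 replicate 1, and 1 to 3 fell. DESeq2 gave 5 and 4. The pseudocount sets the size of low entries: with limma on log2(CPM + 5) the log2 fold change was 0.72 for 9_12040-5p and 3.67 for 3_5151-5p. TMM, median-of-ratios and the totals without miR-1246 reads moved the median log2 fold change of all rows by -0.13, -0.20 and 0.23. Replicate numbers are shared between the groups. Deviations of same-numbered libraries correlated at 0.21, 0.08 and 0.21, beside -0.23 to 0.085 for libraries of different numbers. These values do not settle whether the libraries are pairs, and the main test took none. With the replicate block 5 rose and 4 fell. Each read is worth up to 0.408 CPM, so entries near 1 CPM rest on few reads.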
